A study of Mus musculus with 14 samples.

Results

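The 9 DOCK exchange factors described here are *Dock1*, *Dock2*, *Dock4*, *Dock5*, *Dock6*, *Dock8*, *Dock9*, *Dock10* and *Dock11*, taken by gene symbol from the 56414 genes of a bulk RNA-seq table of 14 mouse mammary tumors. *Dock2*, *Dock8*, *Dock10* and *Dock11*, which are best known from lymphocytes and other white blood cells, were set against the other 5 genes. All 9 passed the filter on low values in every comparison. M/D-driven tumors were induced in female C57BL/6 mice of 6 to 9 weeks by a pellet of 50 mg medroxyprogesterone acetate (MPA, a progestin released over 90 days) and repeated gavage of 200 µL of the carcinogen DMBA at 5 mg/mL, and 4 were left untreated while 4 were treated with NAM. AT3 tumors grew from AT3, a single transplantable mouse mammary carcinoma line injected under the skin, and 3 were untreated and 3 NAM-treated. NAM (nicotinamide, a form of vitamin B3 and precursor of NAD) was given at 0.5% in the drinking water for 10 days, starting from random allocation at a tumor size of 0.25 cm2 in all 4 groups. The labels place NAM-treated M/D tumor 1 in experiment 2, the other 7 M/D tumors in experiment 1 and all AT3 tumors in experiment 3, so that model and experiment cannot be told apart. Each library came from 1 tumor, and p values measure the spread between these tumors.

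DOCK proteins are guanine nucleotide exchange factors: they load GTP onto the small GTPases Rac and Cdc42, which then drive the growth of actin at the cell edge, cell migration and the engulfment of other cells. *Dock1*, *Dock2* and *Dock5* encode Rac activators that work with the scaffold protein ELMO, *Dock4* encodes a Rac activator of a related branch, *Dock6* and *Dock8* belong to a branch acting on Rac or Cdc42, and *Dock9*, *Dock10* and *Dock11* form the zizimin branch, which acts on Cdc42. *Dock2* is needed for the migration of lymphocytes and *Dock8* for the survival and movement of T cells and dendritic cells through tissue. A bulk tumor sample mixes cancer cells with stroma and white blood cells, and fewer cells of a type cannot be told apart from less RNA per cell.

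The promoters of 8 of the 9 genes were found in RefSeq (GRCm38.p6, the same assembly as mm10), all but that of *Dock5*. The 250 bases before the start site are shown for the 4 leukocyte genes, for *Dock6*, the gene called lower in NAM-treated M/D tumors, and for *Dock9*, the gene with the highest level in untreated M/D tumors, all written 5′ to 3′ on the strand of the gene. Capitals mark the core of ETS factors, searched as GGAAGT on both strands.
Dock2: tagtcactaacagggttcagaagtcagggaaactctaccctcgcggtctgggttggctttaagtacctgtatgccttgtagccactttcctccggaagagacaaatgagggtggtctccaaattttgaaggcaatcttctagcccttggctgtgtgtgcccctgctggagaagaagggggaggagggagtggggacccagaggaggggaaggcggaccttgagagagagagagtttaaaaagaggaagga
Dock8: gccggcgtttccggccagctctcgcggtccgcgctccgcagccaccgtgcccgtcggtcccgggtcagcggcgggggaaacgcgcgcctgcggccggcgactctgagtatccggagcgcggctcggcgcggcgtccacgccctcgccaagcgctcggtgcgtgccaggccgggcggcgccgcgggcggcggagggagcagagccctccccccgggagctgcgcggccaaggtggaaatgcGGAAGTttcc
Dock10: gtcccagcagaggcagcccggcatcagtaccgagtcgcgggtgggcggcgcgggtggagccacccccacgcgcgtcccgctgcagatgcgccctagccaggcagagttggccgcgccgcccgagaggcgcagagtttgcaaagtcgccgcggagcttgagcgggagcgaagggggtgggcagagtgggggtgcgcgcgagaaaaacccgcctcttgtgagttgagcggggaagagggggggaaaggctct
Dock11: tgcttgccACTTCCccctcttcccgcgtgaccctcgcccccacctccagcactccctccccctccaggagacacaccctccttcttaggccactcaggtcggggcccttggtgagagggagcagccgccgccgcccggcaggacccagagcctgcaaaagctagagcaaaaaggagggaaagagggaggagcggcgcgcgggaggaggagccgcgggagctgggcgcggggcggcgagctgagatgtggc
Dock6: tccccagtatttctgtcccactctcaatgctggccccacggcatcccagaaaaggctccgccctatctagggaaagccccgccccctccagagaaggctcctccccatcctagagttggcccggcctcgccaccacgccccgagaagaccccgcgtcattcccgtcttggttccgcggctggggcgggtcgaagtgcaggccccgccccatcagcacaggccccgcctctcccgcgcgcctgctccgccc
Dock9: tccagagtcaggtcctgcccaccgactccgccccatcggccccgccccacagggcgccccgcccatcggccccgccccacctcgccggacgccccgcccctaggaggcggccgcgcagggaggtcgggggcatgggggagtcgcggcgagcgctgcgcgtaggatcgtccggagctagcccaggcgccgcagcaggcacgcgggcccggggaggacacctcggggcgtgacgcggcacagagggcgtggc
These windows lie at chr11:34783906-34784155 (minus strand) for *Dock2*, at chr19:24999279-24999528 (plus) for *Dock8*, at chr1:80758554-80758803 (minus) for *Dock10*, at chrX:35888582-35888831 (plus) for *Dock11*, at chr9:21852636-21852885 (minus) for *Dock6* and at chr14:121797735-121797984 (minus) for *Dock9*. The ETS core was found before *Dock8* and *Dock11* of the leukocyte genes and before *Dock4* of the others, and in 19.7% of all 32851 promoter windows of this length. The core TGTGGT of RUNX factors was found in 0 of the 8 windows and in 14.05% of all windows, and the TATAAA box in 0 of 8 and in 12.4% of all. The GC box GGGCGG was found in 3 of 4 windows of leukocyte genes, in 4 of 4 of the others and in 32.7% of all. *Dock2* had none of the 4 motifs and a GC content of 52.8%, against 64% to 78.8% in the 7 other DOCK windows and a median of 52.4% over all windows. *Dock6* and *Dock9* had 5 GC boxes each. The ETS core lay 4 bases before the start site of *Dock8*, 236 before that of *Dock11* and 64 before that of *Dock4*. These are matches of letters, not binding sites.

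The values are normalized counts, that is, read counts on constitutive regions of a gene divided by a size factor of the tumor. From 40936868 to 84178009 whole reads were recovered per tumor. A gene was called higher or lower when limma gave an unadjusted p no larger than 0.05 together with a change of 1.5-fold or more on log2(normalized count + 1), and adjusted p values are those of Benjamini and Hochberg over all genes tested. With NAM, 3.03% of the 21700 genes tested in M/D tumors were called higher and 3.19% lower, 0.00461% passed an adjusted p of 0.05, and 4.43% had groups that did not overlap. In AT3 tumors, 12.2% of 19281 genes were called higher and 10.9% lower, 0.00519% passed the adjusted threshold, and 22.6% had groups that did not overlap. When tumors were scaled by their upper quartile, the median log2 fold change of all genes moved by 0.17 in M/D and by -0.18 in AT3 tumors. The share of calls that were higher then went from 48.7% to 69.7% in M/D and from 52.9% to 26.1% in AT3 tumors.

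Some libraries stood apart in other genes. NAM-treated M/D tumor 1, the tumor of experiment 2, had the lowest value of the 8 M/D tumors for 9 of 9 epithelial markers, the highest for 7 of 7 B cell markers and for 6 of 7 markers of precursor B cells. Its epithelial score, the mean log2 value of the 9 genes, was 9.72 against 14.6 to 15.5 in the 7 other M/D tumors. Its precursor B cell score was 13.5 against 3.24 to 5.70. In AT3 tumors, the values of genes moved with the length of their transcripts: Spearman's rho between a gene's deviation from the model mean and its transcript length was -0.54, 0.01 and -0.52 in untreated tumors 1 to 3 and -0.21, 0.57 and 0.60 in NAM-treated tumors 1 to 3. This matters for DOCK genes since their longest transcripts are 6409 to 9988 nt. NAM-treated M/D tumor 2 had a rho of -0.36, and the 7 other M/D tumors lay between -0.07 and 0.14.

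**Figure D1:**
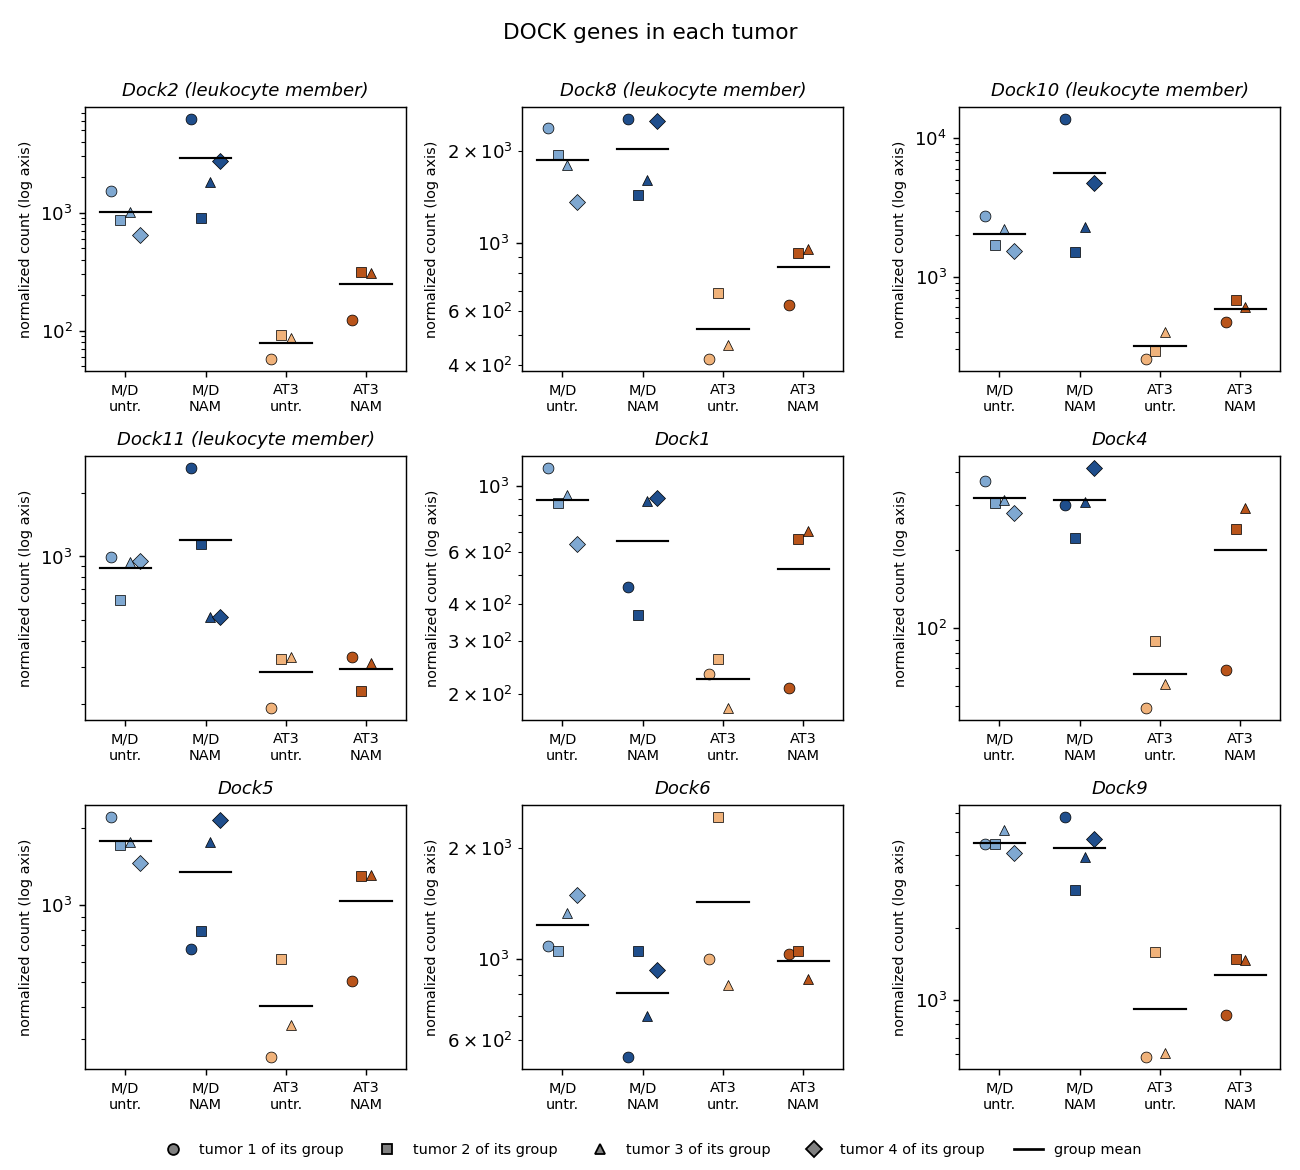
Normalized count of each DOCK gene in each of the 14 tumors on a log axis, with the shape giving the number of the tumor in its group and a line at the group mean. NAM-treated M/D tumor 1 holds the highest *Dock2*, *Dock8*, *Dock10* and *Dock11* and also the highest *Dock9*. *Dock6* is the gene whose level in untreated AT3 tumors reaches that of M/D tumors.

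The first question was whether NAM changed the DOCK genes of M/D-driven tumors. The 4 leukocyte genes had log2 fold changes above 0 (median 0.55) and the 5 others had log2 fold changes below 0 (median -0.53), beside a median of 0.01 over all genes. Only *Dock6* passed the call, as 1 of 9 genes lower, and 0 of the 9 passed an adjusted p of 0.05 (adjusted p values by limma 0.73 to 0.98).

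*Dock6* encodes an activator of Rac and Cdc42 whose loss in humans causes limb and scalp defects. Its row of the table (GSMG0040455) also carries the symbol of the microRNA gene *Mir7083*, and it spans positions 21799860 to 21852635 of chromosome 9 on the minus strand (mm10). It stood at 1079, 1046.3, 1331 and 1484 in untreated M/D tumors 1 to 4 and at 542, 1046.1, 699.6 and 933 in NAM-treated tumors 1 to 4. All NAM-treated tumors were lower than all untreated ones, but untreated tumor 2 and NAM-treated tumor 2 had almost the same value. In M/D tumors the groups did not overlap, in either direction, for 4.43% of all genes tested. The mean went from 1235 ± 209 to 805 ± 227 (SD, n = 4), a log2 fold change of -0.65 ± 0.26 (SE, adjusted p = 0.73 by limma). The exact two-sided permutation test gave p = 0.029, the smallest it can give with 4 against 4, and 0.45 after adjustment over 18 such tests. The call was lost in 5 of 8 fits with a tumor left out, those without untreated tumor 1, 3 or 4 or NAM-treated tumor 1 or 3. Without NAM-treated tumor 1 the log2 fold change was -0.47 and with upper quartile scaling -0.48, both without a call.

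*Dock2* (GSMG0006503), on chromosome 11 from 34226827 to 34783905 (minus strand), encodes the Rac activator of migrating lymphocytes. It was at 1525, 872, 1015 and 646 in untreated M/D tumors 1 to 4 and at 6232, 898, 1813 and 2774 in NAM-treated tumors 1 to 4. NAM-treated tumors 1, 3 and 4 were above every untreated tumor, while tumor 2 lay among them. The log2 fold change was 1.25 ± 0.56 (adjusted p = 0.73 by limma), and it went down to 0.77 without NAM-treated tumor 1 and up to 1.71 without NAM-treated tumor 2, where it passed the call, as it did without untreated tumor 1 (1.47). Both tests on whole reads called it higher, at 1.49 by edgeR and at 1.51 by DESeq2 (adjusted p = 0.25 by DESeq2).

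*Dock10* (GSMG0001805), on chromosome 1 from 80501068 to 80758554 (minus strand), is a zizimin gene that interleukin-4 raises in B cells. It was at 2743, 1681, 2197 and 1523 in untreated M/D tumors and at 13734, 1503, 2276 and 4721 in NAM-treated ones. Tumor 1 of the NAM-treated group was far above every other M/D tumor, and tumor 2 was below them all. The log2 fold change of 0.96 ± 0.63 (adjusted p = 0.77 by limma) fell to 0.35 without tumor 1 and rose to 1.41 without tumor 2, where it passed the call. With all tumors, DESeq2 called it too, at 1.43 (adjusted p = 0.37), whereas edgeR did not.

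*Dock11* (GSMG0041658), on chromosome X from 35888832 to 36076562 (plus strand), encodes the Cdc42 activator of germinal center B cells. It was at 998, 624, 942 and 952 in untreated M/D tumors and at 2617, 1142, 518.2 and 518.2 in NAM-treated ones. NAM-treated tumors thus held the highest and the lowest values of the model. The log2 fold change of 0.13 ± 0.52 (adjusted p = 0.97 by limma) became -0.36 without tumor 1.

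*Dock8* (GSMG0019547), on chromosome 19 from 24999528 to 25202432 (plus strand), encodes an exchange factor of the leukocyte set, and its loss causes a combined immunodeficiency in humans. Its values of 2392, 1945, 1802 and 1366 in untreated M/D tumors and of 2552, 1436, 1615 and 2519 in NAM-treated ones overlapped widely. The log2 fold change was 0.10 ± 0.27 (adjusted p = 0.95 by limma) and -0.03 without NAM-treated tumor 1.

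Of the 4 other genes, *Dock1* and *Dock5* were low in NAM-treated M/D tumors 1 and 2 alone. *Dock5*, an ELMO-bound Rac activator known from osteoclasts (GSMG0012583, chromosome 14, 67751928 to 67933572, minus strand), was at 672 and 795 in these tumors and at 1765 and 2161 in NAM-treated tumors 3 and 4, against 1465 to 2213 in untreated tumors. *Dock1*, the founding member of the family and a factor of engulfment and integrin signalling (GSMG0035273, chromosome 7, 134670653 to 135173647, plus strand), was at 458 and 367 in tumors 1 and 2 and at 886 and 906.5 in tumors 3 and 4, against 635 to 1147. The log2 fold changes were -0.57 ± 0.40 for *Dock5* and -0.53 ± 0.36 for *Dock1*, both with an adjusted p of 0.78 by limma. Without NAM-treated tumor 4, *Dock5* was called lower at -0.85. The levels of *Dock4* (GSMG0008008, chromosome 12, 40446036 to 40846495, plus strand) and *Dock9* (GSMG0012875, chromosome 14, 121542039 to 121797734, minus strand) overlapped between groups, at 279 to 371 and 224 to 416 for *Dock4* and at 4067 to 5076 and 2865 to 5743 for *Dock9*. Their log2 fold changes were -0.05 ± 0.27 and -0.11 ± 0.23. *Dock4* and *Dock9* turned to just above 0, at 0.12 and 0.06, with upper quartile scaling.

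The difference between the mean log2 value of the leukocyte genes and that of the 5 others was -0.04 to 0.39 in untreated M/D tumors. In NAM-treated tumors 1 to 4 it was 2.65, 0.76, 0.37 and 0.66. Tumors 1, 2 and 4 were above every untreated tumor, and tumor 1 stood far above them all. No relation of cell type markers to this difference was computed. The 8 leukocyte markers (*Ptprc*, *Coro1a*, *Laptm5*, *Lcp1*, *Cd53*, *Itgb2*, *Ikzf1* and *Lcp2*) summed to 43295 to 61760 normalized counts in untreated and to 40119 to 180242 in NAM-treated M/D tumors, and 0 of 8 were called. The 7 B cell markers summed to 175 to 1951 and to 283 to 191644, and the 7 precursor B cell markers to 1131 to 1625 and to 1393 to 222490. The highest of these sums came from NAM-treated tumor 1, the only M/D tumor with *Rag2* above 0. The same tumor had the lowest value of all M/D tumors for 5 of 7 macrophage and 4 of 7 T cell markers. It had the highest *Cd68*, *Cd2* and *Lck*. Of 6 markers of natural killer cells 2 were called higher, *Klrb1c* (1.97) and *Klrd1* (1.18), and the 6 summed to 257 to 915 in untreated and to 604 to 2281 in NAM-treated tumors. The sum of 2281 was that of NAM-treated tumor 1, where *Klrb1c* was at 1696, against 132 to 343 in NAM-treated tumors 2 to 4. *Klrd1* (406) was highest there too, while *Ncr1*, *Klre1*, *Gzma* and *Eomes* (27.2 to 64.5) were below their values in NAM-treated tumors 3 and 4. Of 5 adipocyte markers *Adipoq* (0.85) was called higher, with sums of 23348 to 48737 and 30801 to 77915, and of 5 skeletal muscle markers *Myh4* (7.30), with sums of 133 to 25597 and 1065 to 239123. The part of these cells in the DOCK values was not tested.

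In AT3 tumors, the same question was put to 3 untreated and 3 NAM-treated tumors. Here log2 fold changes lay above 0 for 8 of the 9 DOCK genes, and 6 genes were called higher: *Dock2*, *Dock8* and *Dock10* of the leukocyte genes and *Dock1*, *Dock4* and *Dock5* of the others. None of the 9 passed an adjusted p of 0.05 by limma (0.17 to 0.90), whereas *Dock2*, *Dock10*, *Dock4* and *Dock5* did so with DESeq2 on whole reads. The DESeq2 fit did not remove the trend with transcript length. Across all genes, many more passed with DESeq2 than with limma, as counted in the closing section. The median log2 fold change was 0.79 for the leukocyte genes and 1.05 for the others, beside -0.05 over all genes and 0.69 over the 1718 genes with transcripts of 6000 to 10000 nt, of which 41.7% were called higher.

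*Dock2* was at 58.0, 91.4 and 86.3 in untreated AT3 tumors 1 to 3 and at 123, 317 and 309.8 in NAM-treated tumors 1 to 3. *Dock10* was at 255, 290.4 and 399 in untreated and at 469, 679 and 601 in NAM-treated tumors. In both genes every NAM-treated tumor was above every untreated one. In AT3 tumors the groups did not overlap, in either direction, for 22.6% of all 19281 genes tested. The log2 fold change was 1.56 ± 0.42 for *Dock2* (adjusted p = 0.17 by limma) and 0.90 ± 0.27 for *Dock10* (adjusted p = 0.17). Both were called in 6 of 6 fits with a tumor left out. The exact permutation test gave p = 0.10 for each, the smallest possible with 3 against 3.

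*Dock4*, which encodes an activator of Rac and of Rap1, was at 49.3, 89.3 and 61.0 in untreated AT3 tumors and at 69.3, 241 and 292 in NAM-treated ones. *Dock5* was at 255, 616 and 340.2 in untreated and at 507, 1308 and 1316 in NAM-treated tumors. *Dock1* was at 232, 261 and 179 in untreated and at 209, 659 and 705 in NAM-treated tumors. In these 3 genes NAM-treated tumors 2 and 3 were far above the untreated ones while tumor 1 lay among them. The log2 fold changes were 1.38 ± 0.54 for *Dock4*, 1.34 ± 0.44 for *Dock5* and 1.05 ± 0.45 for *Dock1* (adjusted p = 0.18, 0.17 and 0.20 by limma). *Dock4* was called in 2, *Dock5* in 3 and *Dock1* in 1 of the 6 fits with a tumor left out: *Dock1* lost its call without any tumor but NAM-treated tumor 1, *Dock4* without untreated tumor 1 (1.19) or 3 (1.34) or NAM-treated tumor 2 (1.13) or 3 (0.99), and *Dock5* without untreated tumor 1 (1.06) or NAM-treated tumor 2 (1.11) or 3 (1.11). Without these tumors *Dock1* stood between 0.74 and 1.17.

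*Dock8* was at 419, 687 and 465.6 in untreated AT3 tumors and at 627, 931 and 959.9 in NAM-treated ones, where NAM-treated tumor 1 fell below untreated tumor 2. Its log2 fold change of 0.69 ± 0.28 (adjusted p = 0.19 by limma) was called in 2 of 6 fits with a tumor left out, and was 0.54 to 0.62 in the other 4, those without untreated tumor 1 or 3 or NAM-treated tumor 2 or 3. *Dock9*, a Cdc42 activator of the zizimin branch, was at 583, 1579.8 and 606 in untreated and at 865, 1477 and 1469.6 in NAM-treated tumors. The highest value thus belonged to untreated tumor 2, without which *Dock9* was called higher at 1.05 (adjusted p = 0.049 by limma), against 0.58 ± 0.41 with it. *Dock6* was at 996, 2419.5 and 846 in untreated and at 1032, 1049 and 881 in NAM-treated tumors, and its log2 fold change of -0.36 ± 0.37 became 0.10 without the same untreated tumor 2. *Dock11* did not separate at all, with 193, 329 and 336 against 337, 231 and 315 (0.07 ± 0.31, adjusted p = 0.90 by limma).

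**Figure D2:**
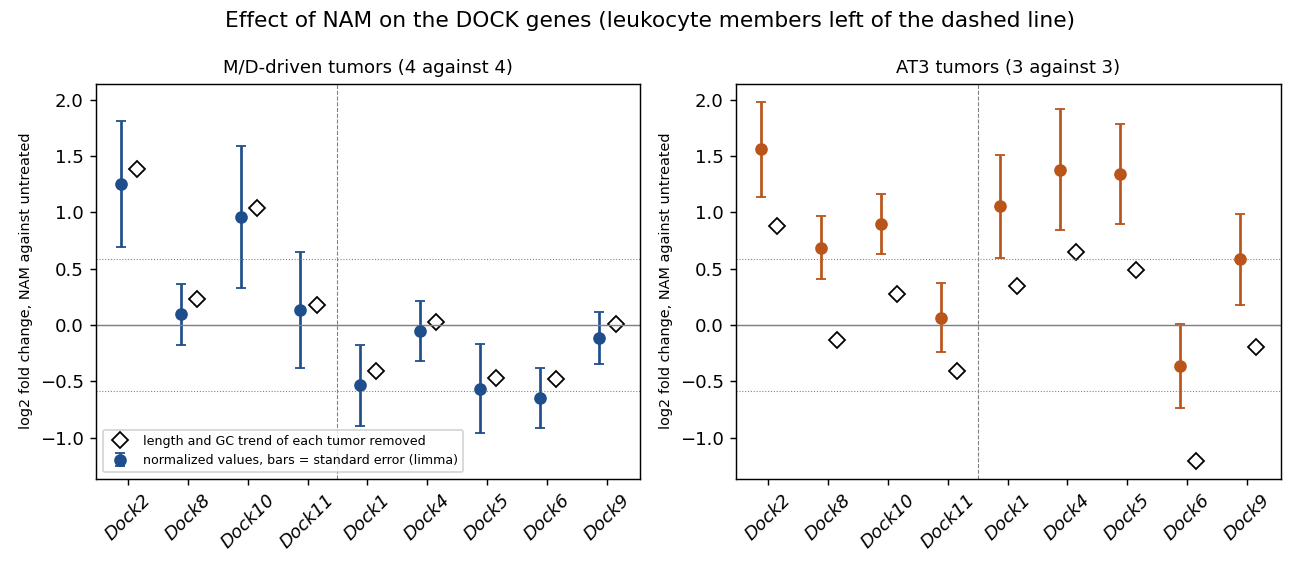
Log2 fold change of each DOCK gene, NAM-treated against untreated, in M/D (left) and AT3 tumors (right), with filled points and standard errors from limma, open diamonds after removal of the length and GC trend within each tumor, and dotted lines at a fold change of 1.5. In AT3 tumors the diamonds lie below the points for all 9 genes, and those of *Dock2* (0.88) and *Dock6* (-1.20) are the ones past a dotted line that carry a call.

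The trend with transcript length bears on these values directly. Across genes, the log2 fold change of AT3 tumors rose with transcript length (Spearman's rho 0.59 over 16429 genes, which are not independent replicates), against -0.04 in M/D tumors. After this trend and that with GC content had been taken out of each tumor, 7.91% of genes were called higher and 7.94% lower in AT3 tumors, and 2 of the 9 DOCK genes were called. *Dock2* stayed higher at 0.88 (adjusted p = 0.16 by limma), and *Dock6* was now lower at -1.20 (adjusted p = 0.15). *Dock10* was left at 0.28, *Dock1* at 0.35, *Dock4* at 0.65 and *Dock5* at 0.49 without a call, and *Dock8* (-0.13), *Dock9* (-0.20) and *Dock11* (-0.41) fell below 0. In M/D tumors, where 2.43% of genes were then called higher and 3.17% lower, *Dock2* was called higher at 1.38 (adjusted p = 0.83 by limma), and *Dock6* was no longer called at -0.48. *Dock4* and *Dock9* were then at 0.03 and 0.0057. The removal also set the mean deviation of each tumor over genes to 0, so that the scale could change with the trend.

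**Figure D3:**
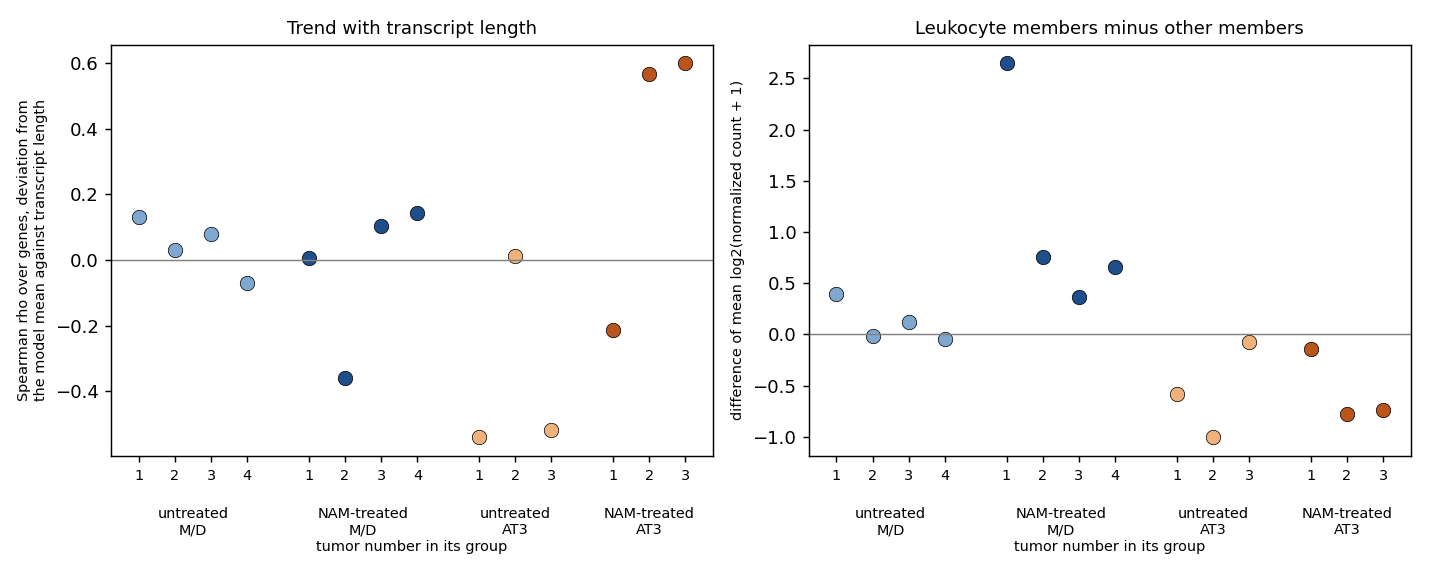
For each of the 14 tumors, Spearman's rho across 15966 genes between the deviation from the model mean and transcript length (left), and the mean log2 value of the 4 leukocyte genes minus that of the 5 other DOCK genes (right). NAM-treated AT3 tumors 2 and 3 lie near 0.6 on the left, untreated AT3 tumors 1 and 3 near -0.5, and NAM-treated M/D tumor 1 stands alone at 2.65 on the right.

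In AT3 tumors the leukocyte genes and the others moved by like amounts. Their difference was -0.58, -1.01 and -0.08 in untreated and -0.14, -0.78 and -0.73 in NAM-treated tumors 1 to 3, with a mean of -0.56 ± 0.46 and -0.55 ± 0.36 (SD, n = 3). Of the 8 leukocyte markers, 5 were called higher by NAM (*Ptprc*, *Laptm5*, *Lcp1*, *Itgb2* and *Ikzf1*). With the trend removed 5 were called again, but *Ptprc* (0.39) had lost its call and *Cd53* (0.70) had gained one. The 8 markers summed to 7857 to 11963 normalized counts in untreated and to 14265 to 14556 in NAM-treated AT3 tumors, which did not overlap. Of 6 endothelial markers 5 were called higher (*Pecam1*, *Cdh5*, *Kdr*, *Tek* and *Tie1*, and 3 with the trend removed), with sums of 4551 to 5810 and 6362 to 9251, which did not overlap either. So were 3 of 7 macrophage markers (*Csf1r*, *Adgre1* and *Mrc1*, and 1 with the trend removed), but no other macrophage marker lay above 0 (list median -0.23). With the trend removed the macrophage list had a median of 0.27, and *Fcgr1* (-0.40) alone lay below 0. Of 7 fibroblast markers 2 were called higher (*Pdgfra* and *Pdgfrb*). With the trend removed *Pdgfra* (0.44) lost its call and *Lum* (0.87) gained one. Of 6 natural killer cell markers 0 lay above 0. With the trend removed *Ncr1* (0.55) and *Klrb1c* (0.18) lay above 0, and the list median was -0.35. Of 6 B cell markers tested 2 were called lower, and 1 with the trend removed. Among 9 epithelial markers 1 was called higher and 2 lower (0 and 0 with the trend removed). With upper quartile scaling *Dock2* (1.39), *Dock10* (0.73) and *Dock5* (1.17) were called, while *Dock8* (0.52), *Dock1* (0.88) and *Dock4* (1.21) were not. The part of white blood cells, endothelial cells and fibroblasts in the DOCK values was not tested. Relative to the leukocyte score, that is, the mean log2 value of the 8 markers, *Dock2* was at -3.19 ± 0.48 in untreated and at -2.33 ± 0.76 in NAM-treated AT3 tumors, *Dock10* at -1.20 ± 0.23 and -1.004 ± 0.25, and *Dock8* at -0.48 ± 0.64 and -0.49 ± 0.32 (SD, n = 3).

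Whether NAM acted differently in the models was tested as an interaction, in which 7.90% of 22710 genes were called higher (in AT3 more than in M/D tumors), 6.97% lower and 0% reached an adjusted p of 0.05 with limma. The call, which rests on unadjusted p, was met by 3377 genes, and the adjusted threshold by 0 genes with edgeR and 840 with DESeq2. Of the 9 DOCK genes, 0 of 4 leukocyte genes and 3 of 5 others were called. *Dock5* differed by 1.91 ± 0.65 (adjusted p = 0.24), *Dock1* by 1.59 ± 0.63 (adjusted p = 0.28) and *Dock4* by 1.43 ± 0.62 (adjusted p = 0.31 by limma). *Dock5* kept the call in 14 of 14 fits with a tumor left out, *Dock1* in 11 and *Dock4* in 5. *Dock1* lost it without untreated AT3 tumor 3 (1.43) or NAM-treated AT3 tumor 2 (1.33) or 3 (1.28), and *Dock4* without untreated M/D tumor 1, 2 or 3, NAM-treated M/D tumor 2 or 3, untreated AT3 tumor 1 or 3 or NAM-treated AT3 tumor 2 or 3, where it stood between 1.04 and 1.45. The leukocyte genes differed by 0.31 ± 0.78 (*Dock2*), 0.59 ± 0.41 (*Dock8*), -0.06 ± 0.79 (*Dock10*) and -0.06 ± 0.68 (*Dock11*), and *Dock6* and *Dock9* by 0.28 ± 0.48 and 0.69 ± 0.49. Genes with transcripts of 6000 to 10000 nt had a median difference of 0.74, and 25.3% of them were called higher. With the length trend removed, 5.00% of genes were called higher and 5.78% lower, and *Dock5* alone of the DOCK genes was called, at 1.01 (adjusted p = 0.42 by limma). With upper quartile scaling, which moved the median of all genes by -0.34 and the share of calls that were higher from 53.2% to 16.1%, 0 of the 9 were called and *Dock5* stood at 1.57 (adjusted p = 0.30 by limma).

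A further comparison set the 4 untreated M/D tumors against the 3 untreated AT3 tumors, after all 14 tumors had been brought to 1 scale by the median ratio over genes. Here 30.2% of 21560 genes were called higher in M/D tumors, 26.5% lower, and 51.5% passed an adjusted p of 0.05. Of the 9 DOCK genes, 8 were called higher in M/D tumors, 8 passed the adjusted threshold, and 8 stayed called in 7 of 7 fits with a tumor left out. *Dock6* was the exception. On this scale *Dock2* was at 904 ± 328 in M/D and at 92.4 ± 20.03 in AT3 tumors (SD, n = 4 and 3), a log2 difference of 3.23 ± 0.34 (adjusted p = 0.00023 by limma). *Dock10* differed by 2.28 ± 0.27 and *Dock9* by 2.05 ± 0.33, while *Dock11* was the least apart of the 8, at 1.24 ± 0.28 (adjusted p = 0.0070 by limma). *Dock6* was at 1102 ± 183 in M/D and at 1658 ± 971 in AT3 tumors, a difference of -0.45 ± 0.34 (adjusted p = 0.29 by limma), and at -0.0072 without untreated AT3 tumor 2.

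Genes of 6000 to 10000 nt had a median difference of 1.16 in this comparison, with 59.6% of them called higher in M/D tumors, and rho with transcript length was 0.32 across genes. With the trend removed, 21.8% of genes were called higher and 36.0% lower. On the genes with a length alone, calls went from 6030 higher and 4626 lower to 3961 and 6527. Since the removal also set each tumor's mean deviation to 0, changes of scale and of trend cannot be told apart here. *Dock2* (2.02, adjusted p = 0.0013 by limma), *Dock10* (1.15, adjusted p = 0.0059) and *Dock9* (0.68, adjusted p = 0.039) were then higher in M/D tumors, *Dock6* was lower at -1.91 (adjusted p = 0.00031), and *Dock8* was at -0.0015. *Dock1* (0.34), *Dock4* (0.58), *Dock5* (0.33) and *Dock11* (0.37) had no call. The 8 leukocyte markers were all called higher in M/D tumors, with a median difference of 2.20, or 1.64 with the trend removed, and so were 6 of 9 epithelial markers (median 3.23). *Dock2* (3.23) lay above that median, *Dock10* (2.28) close to it, and *Dock8* (1.44) and *Dock11* (1.24) below it. The part of cell content in these differences was not tested. The deposited values without rescaling gave the same 8 calls, with 68.7% of all calls higher against 53.2% on the common scale.

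Levels were compared between DOCK genes per kb of the longest transcript. In untreated M/D tumors *Dock9* came first at 556 ± 51.6 normalized counts per kb (SD, n = 4), above the range of all others, and *Dock4* last at 37.1 ± 4.52, below all others. Between them lay *Dock10* (283 ± 76.8), *Dock8* (240.4 ± 54.2), *Dock6* (179.5 ± 30.4), *Dock5* (179.1 ± 31.2), *Dock2* (158 ± 58.1), *Dock11* (132 ± 25.8) and *Dock1* (132 ± 30.9), each overlapping with its neighbour. In untreated AT3 tumors *Dock6* came first at 206 ± 126 (SD, n = 3), and *Dock9* (114 ± 70.2), *Dock8* (67.1 ± 18.4), *Dock10* (43.7 ± 10.4), *Dock11* (42.9 ± 12.1), *Dock5* (40.4 ± 18.9) and *Dock1* (32.9 ± 6.10) followed, each overlapping with the next. *Dock2* (12.3 ± 2.81) and *Dock4* (7.78 ± 2.41) lay below the 7 others and overlapped with each other. In NAM-treated M/D tumors *Dock10* was first by its mean, at 772 ± 781 (SD, n = 4), and *Dock9* second at 529 ± 149. The mean of *Dock10* rested on tumor 1 (1908 per kb): in the 3 tumors of experiment 1, a split chosen after seeing the data, *Dock9* was first (470 ± 110, SD, n = 3) and *Dock10* second (394 ± 233). The ranges of both genes overlapped, whether or not tumor 1 was counted. In NAM-treated AT3 tumors *Dock9* (157 ± 43.3) and *Dock6* (143.5 ± 13.4) led. *Dock4* was last in all 4 groups. *Dock6* was thus in the middle of the order in untreated M/D tumors and at its top in untreated AT3 tumors. The order depends on the length used for each gene: with merged exons *Dock10* went from rank 2 to 5 in untreated M/D and from 4 to 7 in untreated AT3 tumors.

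**Figure D4:**
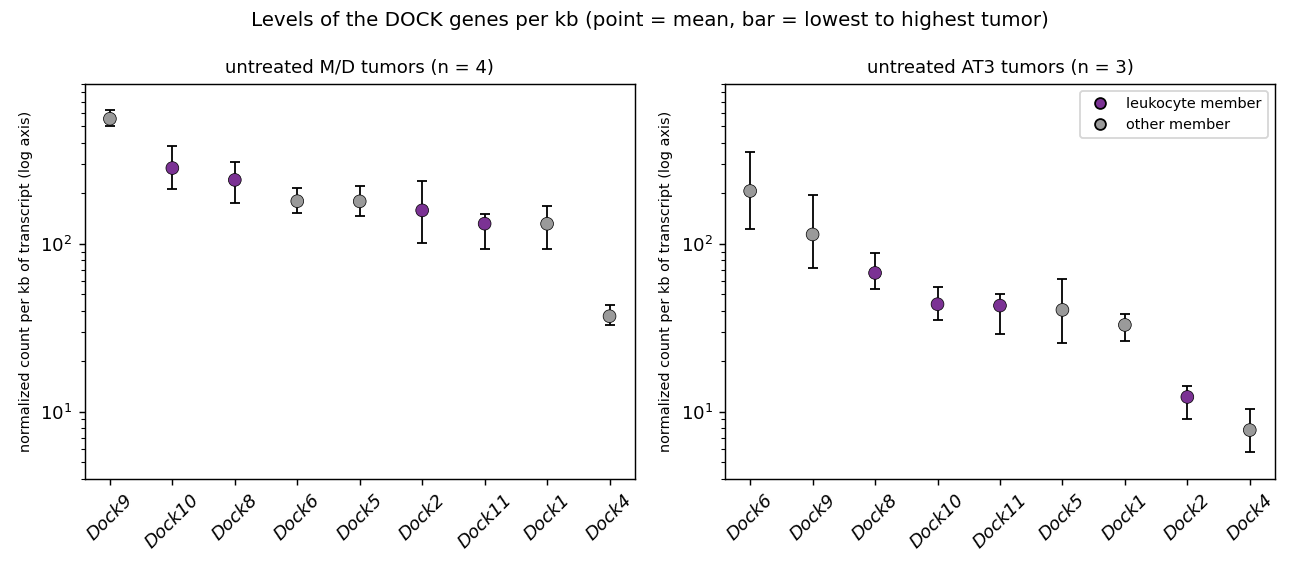
Normalized count per kb of the longest transcript on a log axis for the 9 DOCK genes in untreated M/D (left) and untreated AT3 tumors (right), with points at the mean and bars from the lowest to the highest tumor. *Dock9* at 556 and *Dock4* at 37.1 stand clear of the rest in M/D tumors, and *Dock2* at 12.3 and *Dock4* at 7.78 do so in AT3 tumors.

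The leukocyte score was used to describe how each DOCK gene followed white blood cell content within a model. *Dock10* had the highest Pearson r in both models. In the 8 M/D tumors r was 0.92 (exact permutation p = 0.0075) and Spearman's rho 0.60 (exact permutation p = 0.13), and in the 6 AT3 tumors r was 0.91 (exact p = 0.015) and rho 0.89 (exact p = 0.033). After adjustment over the 18 relations the smallest p was 0.108, so that 0 of 18 passed, against 4 of 18 at an unadjusted p under 0.05 for r. *Dock2* had an r of 0.83 in M/D (exact p = 0.018, rho 0.60) and of 0.76 in AT3 tumors (exact p = 0.10, rho 0.77). *Dock11* had an r of 0.78 in M/D (exact p = 0.038, rho 0.45) but of 0.13 in AT3 tumors, and *Dock8* 0.65 and 0.53. *Dock1*, *Dock5* and *Dock6* had negative r in M/D tumors (-0.42, -0.58 and -0.60, exact p = 0.31, 0.13 and 0.13).

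The relation in M/D tumors leaned on NAM-treated tumor 1. This tumor had the highest M/D value for 5 of the 8 leukocyte markers, and by unequal amounts. *Ikzf1* was at 7693 against 220 to 731 in the other M/D tumors, and *Coro1a* at 81832 against 6380 to 12255. *Itgb2*, at 6708, lay within the range of the others (4254 to 10166). Within the 7 tumors of experiment 1, r was 0.64 for *Dock10* (exact p = 0.11), 0.47 for *Dock2*, 0.56 for *Dock8* and 0.22 for *Dock11*, and *Dock1*, *Dock5* and *Dock6* had r between 0.02 and 0.15. Without the 2 M/D tumors farthest from the median score (NAM-treated tumors 1 and 3), r was 0.79 for *Dock10*, 0.83 for *Dock2* and -0.10 for *Dock11*. In AT3 tumors the score separated untreated (9.18 to 9.81) from NAM-treated tumors (10.15 to 10.19), so that the relation there cannot be told apart from treatment. Without the 2 AT3 tumors farthest from the median score, r was 0.88 for *Dock8*, 0.87 for *Dock9*, 0.82 for *Dock10*, 0.81 for *Dock5*, 0.80 for *Dock2*, 0.71 for *Dock1* and 0.70 for *Dock4*, so that *Dock10* no longer had the highest. That of *Dock6* went from -0.70 to 0.66. The 2 tumors left out were untreated tumors 1 and 2. These r thus rest on 1 untreated tumor, at a score of 9.81, beside the NAM-treated tumors at 10.15 to 10.19. With the epithelial score, *Dock10* had an r of -0.86 (rho -0.40) in M/D and of -0.78 (rho -0.66) in AT3 tumors, and *Dock6* had 0.72 (rho 0.24) and 0.30 (rho 0.43). The M/D values rested on NAM-treated tumor 1, whose epithelial score of 9.72 lay far from the others: in experiment 1 alone, a split of this score chosen after seeing the data, r was -0.11 for *Dock10* and 0.06 for *Dock6*.

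**Figure D5:**
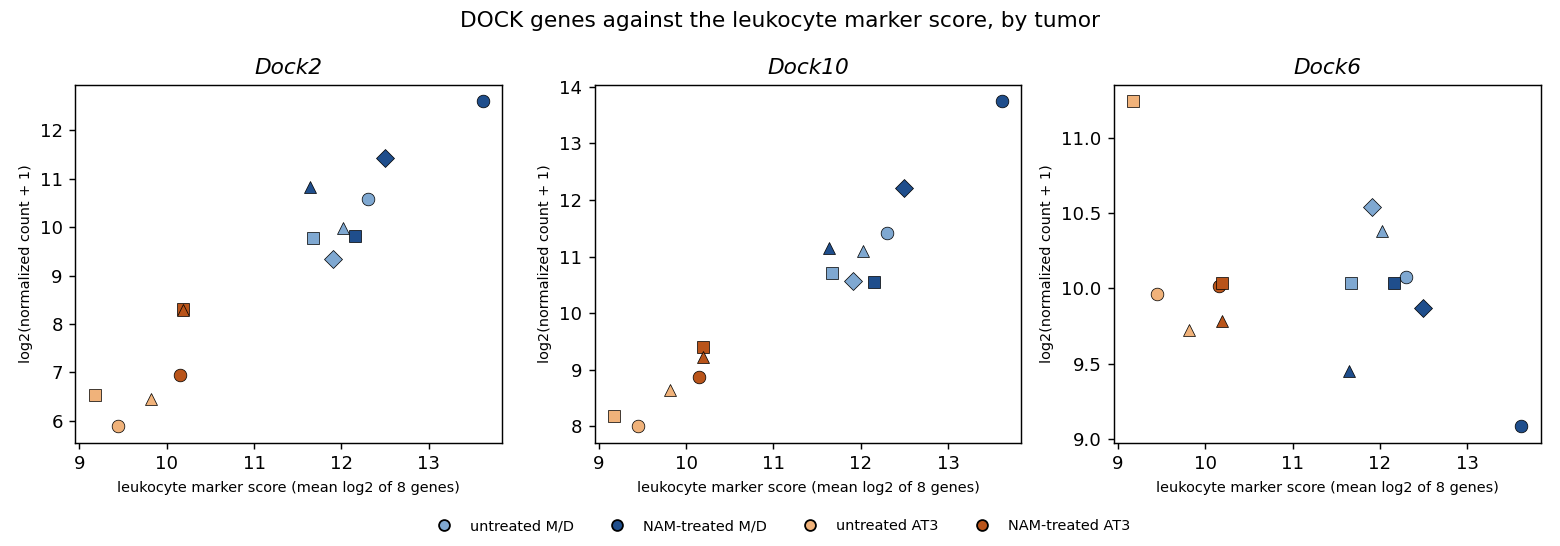
Log2(normalized count + 1) of *Dock2*, *Dock10* and *Dock6* against the leukocyte score, the mean log2 value of 8 leukocyte markers, in the 14 tumors, with colors for the 4 groups and shapes for the tumor number. NAM-treated M/D tumor 1, at a score of 13.6, has the highest *Dock10* and the lowest *Dock6*, and the AT3 tumors lie apart at scores of 9.18 to 10.19.

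The genes most alike each DOCK gene were those with the highest Pearson r of log2 values centred on the model mean, over 14 tumors and 15414 genes. Among the 3 closest were *Pip4k2a* (0.96) and *Prex1* (0.96) for *Dock2*, and *Itga4* (0.98), *Pip4k2a* (0.97) and *Akna* (0.96) for *Dock10*. *Dock11* was most like *Tgfb1* (0.93), *Dntt* (0.92) and *Zbtb1* (0.91), and *Dock8* most like *Slc9a8* (0.97), *Cmtr1* (0.97, in a row shared with *Rnf8*) and *Foxo1* (0.97). Of these, *Pip4k2a* and *Prex1* for *Dock2*, *Pip4k2a* and *Akna* for *Dock10* and all 3 of *Dock8* were again among the 3 closest without NAM-treated M/D tumor 1, whereas *Dock11* then had *Vps50* (0.92) as its closest gene. *Dock1* was most like *Lats1* (0.96), *Sbf2* (0.96) and *Ndst1* (0.95), *Dock4* most like *Gatad2b* (0.98), *Mfn2* (0.98) and *Synj1* (0.98), and *Dock5* most like *Rbm47* (0.97), *Frs2* (0.97) and *Zfp507* (0.97). *Dock9* was most like *Numa1* (0.97), *Ankrd17* (0.96) and *Setd1b* (0.96), and *Dock6* had the lowest values, with *Inafm1* (0.92) first and *Ccdc9* (0.86) the last of its 3. Among the DOCK genes themselves, the median r was 0.60 over the 6 pairs of leukocyte genes, 0.64 over the 10 pairs of other genes and 0.26 over the 20 mixed pairs. Without NAM-treated M/D tumor 1 these medians were 0.34, 0.77 and 0.61. These values were picked as the highest of many and share the libraries and their length trends, so they carry no p.

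The partners and targets of DOCK proteins were followed in 39 further genes. In M/D tumors NAM left 0 of 39 called higher and 3 lower, against 3.03% and 3.19% of all genes, with a median log2 fold change of -0.13. These were *Arhgdig*, an inhibitor that holds small GTPases in the GDP form (-2.03 ± 0.67), *Wasl*, the N-WASP nucleator of actin downstream of Cdc42 (-0.66 ± 0.28), and *Tiam1*, a Rac exchange factor of the Dbl type (-0.93 ± 0.34), each with an adjusted p of 0.73 by limma. With the length trend removed, 0 of 39 were called higher and 1 lower, *Arhgdig* (-1.79), against 2.43% and 3.17% of all genes. *Wasl* (-0.59) and *Tiam1* (-0.79) then had no call. In AT3 tumors 14 of 39 were called higher and 2 lower (6 and 3 with the length trend removed), with a median of 0.41. The shares over all genes were 12.2% and 10.9% (7.91% and 7.94% with the trend removed). By list, these were 2 of 9 ELMO proteins and adaptors, 0 of 8 small GTPases, 0 of 3 GDP dissociation inhibitors, 7 of 11 actin effectors and 5 of 8 Dbl-type exchange factors.

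The ELMO scaffold *Elmo1*, the partner of *Dock2* in lymphocytes, was at 1.00 ± 0.24 and *Wipf1*, which binds the actin nucleator WASP, at 1.58 ± 0.31 in AT3 tumors. Of the actin effectors, *Pak2*, a kinase activated by Rac and Cdc42, was at 1.00 ± 0.27, *Nckap1l*, the subunit of the WAVE complex in blood cells, at 1.02 ± 0.28, *Wasf2* at 1.23 ± 0.43 and *Wasl* at 0.78 ± 0.29. Of the Dbl-type factors, *Arhgef6* was at 1.42 ± 0.31, *Vav2* at 1.10 ± 0.31, *Tiam1* at 1.46 ± 0.43 and *Arhgef7* at 1.19 ± 0.36. Of the 8 GTPases, whose median was -0.25, *Rac3* alone was called, lower at -1.02 ± 0.26, and *Arhgdig* was lower at -0.97 ± 0.24. The adjusted p of each of these genes was 0.17 by limma. With the trend removed, *Wipf1* (1.10), *Arhgef6* (1.13), *Tiam1* (0.66) and *Arhgef7* (0.64) were called again, and *Elmo1* (0.48), *Pak2* (0.54), *Nckap1l* (0.52), *Wasf2* (0.55), *Wasl* (0.55), *Vav2* (0.46), *Rac3* (-0.55) and *Arhgdig* (-0.50) were not. In the interaction, 7 of 39 were called higher, against 7.90% of all genes, 5 of the 7 being actin effectors, and *Tiam1* differed most at 2.39 ± 0.58 (adjusted p = 0.19 by limma). With the trend removed, 3 of 39 were called higher in the interaction, 2 of them actin effectors, against 5.00% of all genes.

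Between untreated models, 23 of the 39 genes were higher in M/D tumors and 5 lower (15 and 10 with the trend removed), and 27 passed an adjusted p of 0.05. Over all genes the shares were 30.2% and 26.5% (21.8% and 36.0% with the trend removed), and 51.5% passed the adjusted threshold. All 8 Dbl-type factors were called higher, 7 of them past the adjusted threshold, led by *Tiam1* (4.31 ± 0.38) and *Arhgef6* (3.65 ± 0.30). So were 10 of 11 actin effectors, among them *Nckap1l* (2.47 ± 0.25), *Wasf2* (2.15 ± 0.20) and *Was* (2.01 ± 0.26), the WASP gene of blood cells. Of the GTPases, *Rac2*, the Rac of blood cells, was higher (2.28 ± 0.27) and *Rac3* lower (-1.64 ± 0.34), while 6 of 8 were not called. Of the ELMO proteins and adaptors 4 were higher, with *Wipf1* (3.23 ± 0.27), *Lrch1* (1.29 ± 0.25) and *Elmo1* (0.94 ± 0.30) among them, and 2 lower, with *Elmo3* at -0.72 ± 0.21. With the trend removed *Lrch1* (0.39) and *Elmo1* (-0.046) were not called, *Elmo1* having turned in sign. Of the inhibitors 2 of 3 were lower, *Arhgdia* (-1.10 ± 0.22) and *Arhgdig* (-0.71 ± 0.23). *Dock3*, a DOCK gene outside the set of 9 known from neurons, was at 14.5 to 47.3 in untreated M/D and at 0 to 8.12 in untreated AT3 tumors as deposited (3.62 ± 0.94 on the common scale, adjusted p = 0.012 by limma). It was not called in M/D tumors or in the interaction and was below the filter in the NAM comparison of AT3 tumors.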

How the data were processed

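Poly(A) RNA of 14 tumors was sequenced as paired reads. Per the labels and the methods of the study, the authors aligned reads with STAR 2.4.0 to mm10, counted those on constitutive regions of genes of a FAST DB annotation and divided the counts by size factors of DESeq2. The deposited values are therefore a signal in normalized counts, and the models appear to have been normalized apart: median ratios to the mean over both models were 1.10 to 1.17 in M/D and 0.837 to 0.895 in AT3 tumors. Of the 56414 genes, 19524 were at 0 in all tumors and 30657 had no symbol. Whole reads were recovered from the deposited values (100% within 0.01 of a whole number), and the totals of 40936868 to 84178009 reads are the depth behind each tumor.

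DOCK genes were matched by symbol, and for *Dock1* and *Dock9* the row with the higher mean was taken over a second one at 0 to 16.8 and 0.814 to 14.5 normalized counts. These genes and all gene lists were chosen with earlier results of these data known. Named pathway genes are those called in a comparison, up to 4 per list by smallest p, and the 3 most alike genes per DOCK gene. A few genes under these rules are not reported here. Log2(normalized count + 1) was fitted by limma with a trend (version 3.58.1, R 4.3.3) for genes that averaged 10 or more in any group. Calls used the thresholds of the study, p up to 0.05 with a change of 1.5-fold or more; whether its p was adjusted is not stated, so the unadjusted p was used and the adjusted one given beside it. Fold changes on this scale understate those of low genes. Each tumor's trend with length and GC content of the longest transcript (GENCODE vM21) was removed as an alternative by a spline with 4 degrees of freedom, for the genes with a length. The fit held a constant term that was subtracted too, which set each tumor's mean deviation over these genes to 0. Values with the trend removed can thus differ in scale as well as in trend. Exact permutation tests were two-sided. Other alternatives were edgeR 4.0.16 and DESeq2 1.42.0 on whole reads, other pseudocounts, filters and scalings, a replicate block, and each tumor left out. Fits were tested on simulated data. Python 3.11.15, pandas 2.3.3, numpy 2.4.6, scipy 1.17.1 and matplotlib 3.10.9 were used. No source states that equal replicate numbers pair tumors.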

Additional observations from a re-analysis of the deposited data

Results flagged for a closer look

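In untreated M/D tumors, *Dock11* of tumor 2 (624 normalized counts) lay apart from the 3 others (942 to 998): its gap to the nearest tumor was 0.851 of the range of the group. This was the only 1 of 18 groups of 4 tumors to be marked in this way, and chance marks about 1 in 20 groups. The effect of NAM differed between models by the interaction test for *Dock1* (1.59 log2 units higher in AT3 than in M/D tumors), *Dock4* (1.43) and *Dock5* (1.91), none of which passed an adjusted p of 0.05 by limma.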

How the results depend on the processing

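In M/D tumors, 1350 genes were called, against 2180 with no filter on low values, 859 with a group mean of at least 50, 2092 with DESeq2 and 2225 with all 14 tumors in 1 fit. Among the leukocyte DOCK genes, 0 were called, against 1 with no filter, upper quartile scaling, edgeR, all 14 tumors in 1 fit or the length trend removed, and 2 (*Dock2* and *Dock10*) with DESeq2. Of the others, 1 was called, against 0 with upper quartile scaling, all 14 tumors in 1 fit, the trend removed or experiment 1 only. In AT3 tumors, removal of the trend, which could be done only for genes with a known length, took 4458 calls to 2605 (on those genes alone, 2308 higher and 1736 lower to 1300 and 1305), the leukocyte genes from 3 to 1 and the others from 3 to 1, and upper quartile scaling took the others to 1. In the interaction, it took 3377 calls to 2040 (on those genes alone, 1728 higher and 1108 lower to 947 and 1093) and the others from 3 to 1, or to 0 with upper quartile scaling. Between untreated models, both sets went from 4 to 2 with the trend removed. In untreated M/D tumors, the ratio of the highest to the lowest level per kb went from 15.1 to 24.8 with merged exons, a change in the length used.

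Directions turned as follows. In M/D tumors these were *Dock4* (0.12) and *Dock9* (0.060) with upper quartile scaling, the same genes (0.031 and 0.0057) with the trend removed, and *Dock8* (-0.031) and *Dock11* (-0.36) in experiment 1 only. In AT3 tumors they were *Dock11* (-0.10) with upper quartile scaling and *Dock8* (-0.13), *Dock9* (-0.20) and *Dock11* (-0.41) with the trend removed. In the interaction they were *Dock2* (-0.030) and *Dock6* (-0.057) with upper quartile scaling, *Dock2* (-0.46), *Dock6* (-0.65), *Dock8* (-0.30) and *Dock9* (-0.16) with the trend removed, and *Dock10* (0.55) and *Dock11* (0.42) in experiment 1 only. Between untreated models it was *Dock8* (-0.0015) with the trend removed. Correlations with the leukocyte score turned without the 2 farthest tumors for *Dock11* (-0.10), *Dock1* (0.12), *Dock5* (0.23) and *Dock9* (-0.0095) in M/D and *Dock11* (-0.46) and *Dock6* (0.66) in AT3 tumors, and in experiment 1 only for *Dock1* (0.016), *Dock5* (0.13) and *Dock6* (0.15). In AT3 tumors the 2 left out were both untreated. The cause was not tested.

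With a tumor left out, calls ranged from 784 to 2712 in M/D (leukocyte genes 0 to 2, others 0 to 2), from 1618 to 6765 in AT3 (2 to 3 and 0 to 3), from 1838 to 4574 in the interaction (0 to 0 and 1 to 4) and from 10855 to 12624 between untreated models (4 to 4 and 4 to 4). Ranges across 0 were those of *Dock4* (-0.20 to 0.094), *Dock8* (-0.048 to 0.25), *Dock9* (-0.27 to 0.068) and *Dock11* (-0.36 to 0.42) in M/D, of *Dock6* (-0.66 to 0.10) and *Dock11* (-0.19 to 0.23) in AT3, and of *Dock2* (-0.14 to 0.79), *Dock6* (-0.0089 to 0.75), *Dock10* (-0.52 to 0.55) and *Dock11* (-0.35 to 0.42) in the interaction. Genes past an adjusted p of 0.05 went from 1 to 179 in M/D and from 1 to 2047 in AT3 tumors with DESeq2, and from 0 to 2520 in AT3 tumors with a tumor left out.

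The replicate block gave 1001 calls in M/D tumors with 1 leukocyte gene (*Dock2*) and 0 others, 5082 in AT3 with 3 and 3, 2959 in the interaction with 0 and 3, and 10764 between untreated models with 4 and 4. Genes past an adjusted p of 0.05 went from 1 to 1296 in AT3 tumors under the block. Correlations between equal numbers were 0.11, -0.44, -0.22 and -0.19 in M/D and 0.13, 0.26 and -0.16 in AT3 tumors, so the numbers were not taken as pairs.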
